A study of Rattus norvegicus with 20 samples.

Results

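Blood vessels of the brain are lined by endothelial cells, which are joined by tight junctions and carry the transporters that make up the blood-brain barrier. They are wrapped by mural cells, which are pericytes on capillaries and contractile smooth muscle cells on arterioles. Endothelial cells respond to VEGF, angiopoietin, Notch and Wnt signals and to the shear stress of flowing blood, and ETS and SOXF transcription factors keep their identity.

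The genes described here are 41 markers and regulators of these cells, of which 29 are endothelial, 11 are mural and 1, Vegfa, is a ligand that other brain cells supply. They were measured in the nucleus accumbens shell, a ventral striatal region of the reward system, of P rats, an alcohol-preferring line selected over generations for how much ethanol it drinks. In the ethanol group 10 adolescent animals could drink ethanol at 15 and 30%, and in the water group 10 animals had nothing but water. All 20 animals were P rats and each gave 1 array. The sources used here do not give the sex, the exact age or the time between the last drink and sampling. Values are log2 RMA values of an Affymetrix array, and differences are ethanol minus water on that scale.

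Where several probe sets measured a member, the brightest one by its mean over the 20 arrays stood for the gene. No probe set in the platform's gene table carried Cdh5, Robo4 or Ly6c1 as its single gene, so these 3 endothelial members were not analysed here. Of the 38 others, 32 lay above the filter that left out the dimmest 33.3% of probe sets (mean below 6.65), and they were part of 10746 genes tested. The 32 comprise 24 endothelial genes, 7 mural genes and Vegfa. The 6 dim members were Flt1 and Nos3 on the endothelial side and Notch3, Kcnj8, Cnn1 and Tbx18 on the mural side. Probe sets that the platform assigns to several genes were left out, which set aside 5 for Acta2 and 1 for Abcb1a.

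Markers of both cell types lay above the filter, though signal over background is not in the values. The tight junction protein Cldn5 averaged 10.90 ± 0.11 in ethanol and 10.84 ± 0.10 in water animals (SD, n = 10 each), and the pericyte signalling regulator Rgs5 averaged 9.95 ± 0.18 in ethanol and 9.81 ± 0.17 in water animals. The smooth muscle myosin Myh11 averaged 8.45 ± 0.31 in ethanol and 8.34 ± 0.37 in water animals. Levels of different probe sets are not comparable with each other, so no order of the genes is drawn from them.

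Promoter sequences are shown for 4 endothelial genes, because these had an unadjusted p under 0.05 between the groups and an entry among the RefSeq promoters. Sox17, Sox18 and Icam2 also had such a p but no entry. Ocln is thus the only gene shown that was lower in ethanol, and no link of letters and direction is drawn. The sequences come from RefSeq (build GRCr8) and hold the 250 bases before a transcript start, 5′ to 3′. Capitals mark AGGAAG or its reverse complement CTTCCT, a longer form of the GGAA core that ETS factors bind. That core also stands outside the capitals, among others in the Ocln and second Egfl7 windows. Egfl7 has 2 transcript starts. The first window lies at chr3:29805381-29805630 (plus strand) and the second at chr3:29808051-29808300 (plus strand). The windows of the other genes lie at chr5:137304982-137305231 for Tie1 (minus strand), chr2:228564289-228564538 for Emcn (plus strand) and chr2:33441199-33441448 for Ocln (minus strand).
Egfl7 first start: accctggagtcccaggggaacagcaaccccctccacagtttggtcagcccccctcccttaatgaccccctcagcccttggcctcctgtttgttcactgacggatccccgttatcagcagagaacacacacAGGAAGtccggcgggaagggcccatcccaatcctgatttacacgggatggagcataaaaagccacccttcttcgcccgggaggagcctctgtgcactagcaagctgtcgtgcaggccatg
Egfl7 second start: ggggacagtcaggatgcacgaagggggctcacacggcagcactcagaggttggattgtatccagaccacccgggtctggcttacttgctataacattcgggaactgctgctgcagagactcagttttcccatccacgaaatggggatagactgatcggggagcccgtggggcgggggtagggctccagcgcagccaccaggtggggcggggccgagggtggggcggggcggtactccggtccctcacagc
Tie1: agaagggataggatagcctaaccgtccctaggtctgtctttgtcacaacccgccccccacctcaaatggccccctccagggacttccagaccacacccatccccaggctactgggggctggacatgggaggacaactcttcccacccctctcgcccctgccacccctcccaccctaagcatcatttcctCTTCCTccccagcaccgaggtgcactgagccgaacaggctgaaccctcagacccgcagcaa
Emcn: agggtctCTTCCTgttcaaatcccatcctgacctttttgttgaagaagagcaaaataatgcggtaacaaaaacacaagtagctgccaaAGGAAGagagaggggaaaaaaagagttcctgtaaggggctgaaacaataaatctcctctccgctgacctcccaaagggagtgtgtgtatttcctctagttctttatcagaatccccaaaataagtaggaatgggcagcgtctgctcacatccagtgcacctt
Ocln: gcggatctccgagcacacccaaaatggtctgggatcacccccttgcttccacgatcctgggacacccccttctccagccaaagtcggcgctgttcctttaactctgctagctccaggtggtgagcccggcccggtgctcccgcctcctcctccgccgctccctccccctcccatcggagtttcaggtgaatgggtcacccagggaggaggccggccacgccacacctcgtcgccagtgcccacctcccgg

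The promoters of Tie1, Emcn and the first Egfl7 start held the ETS letters (AGGAAG or CTTCCT) 1, 2 and 1 times. Those of Ocln and the second Egfl7 start did not hold these letters. An entry among the RefSeq promoters was found for 26 of the 41 members, with 28 starts in all. The ETS letters were present in 11 of these 28 windows (39.3%), against 29.5% of all 33469 promoters of the same length. The letters ACAAT of SOX factors, searched on both strands, were in 28.6% of the member windows and 30.0% of all promoters. The letters CACCC of Krüppel-like factors, searched the same way, were in 60.7% of the member windows and 49.2% of all promoters. The member windows were richer in GC, with a median of 60.0% against 51.2% of bases in all promoters, and the part of base composition in these shares was not tested. These matches describe letters in a window and not binding.

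Some arrays stood apart before any vessel gene was considered. The mean of 11 medium spiny neuron markers lay between 12.40 and 13.09 in ethanol (median 12.90) and between 11.56 and 13.07 in water (median 12.77), with all 11 differences positive, and water animals 17, 19 and 20 had the lowest values. The mean of 11 oligodendrocyte markers lay between 11.39 and 12.27 in ethanol (median 11.60) and between 11.35 and 12.28 in water (median 11.79), with all 11 differences negative. Of all genes tested 50.1% had a positive difference. The 3′ bias, taken here as the 3′ minus the 5′ probe sets of the actin and GAPDH controls and larger in more degraded RNA, lay between 1.06 and 1.43 in ethanol (median 1.17) and between 1.10 and 1.70 in water (median 1.36). The part of these differences in the results was not tested beyond the covariates and left-out animals named beside them.

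No endothelial and no mural member passed the test between ethanol and water animals. Of 24 endothelial members tested 0 had an adjusted p under 0.05, of 7 mural members 0, and Vegfa did not pass either (limma, Benjamini-Hochberg over all 20695 probe sets, where 20, or 0.0966%, passed). Of all genes tested 0.0931% passed. The groups overlapped for every one of the 32 members tested (0 without overlap), while 0.0651% of all genes had groups that did not overlap. At an unadjusted p under 0.05 stood 7 of the 24 endothelial members (29.2%), 3 of them higher and 4 lower in ethanol, and 0 of the 7 mural members. The same level was reached by 10% of all genes tested, with 5.24% higher and 4.77% lower in ethanol. In whole tissue, fewer cells of a type and less RNA per cell cannot be told apart.

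The 3 endothelial genes that were higher at this level were the secreted factor Egfl7, the receptor Tie1 and the surface sialomucin Emcn. The 4 that were lower were the transcription factors Sox17 and Sox18, the adhesion molecule Icam2 and the tight junction protein Ocln. The median difference over the 24 endothelial members was 0.0068, with 12 positive and 12 negative, beside a median of 0.00016 over all genes. The mural median was 0.05, with 5 positive and 2 negative differences. For 24 of the 32 members the 95% interval lay within 0.3 on either side of 0.

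**Figure D1:**
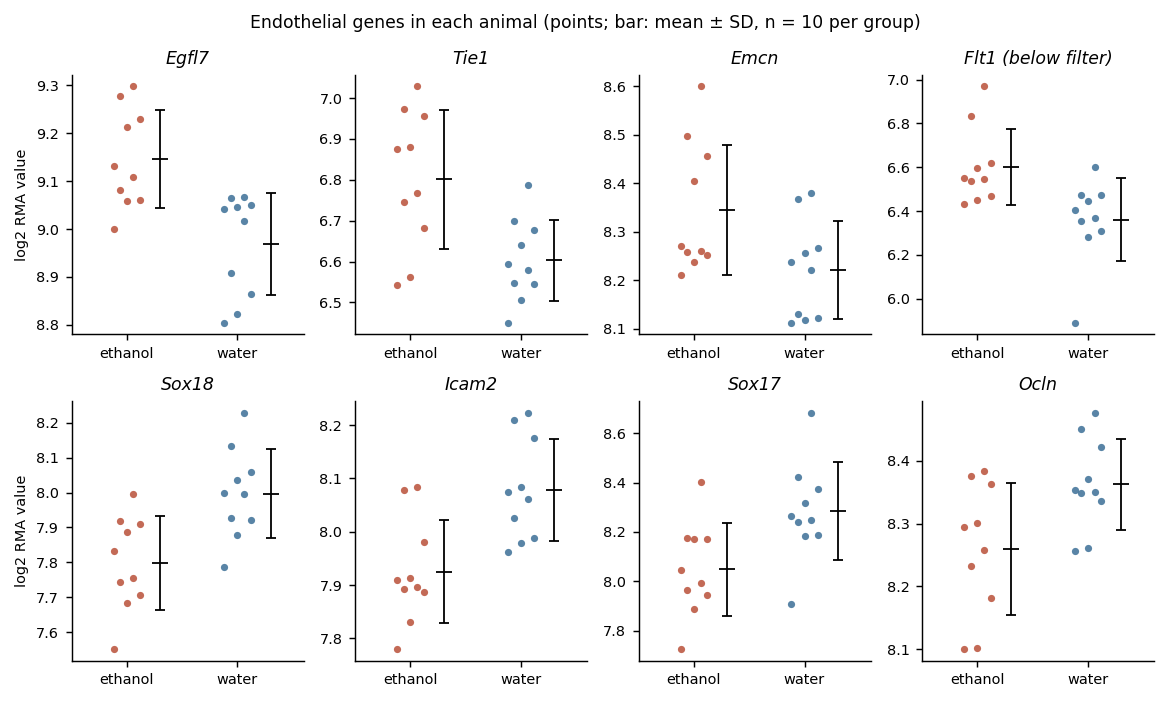
Log2 RMA values of each animal (points) for the 7 endothelial genes with an unadjusted p under 0.05 and for Flt1, which lay below the filter. Ethanol stands left and water right, with mean ± SD beside the points (n = 10 each). The upper row holds genes with higher and the lower row genes with lower ethanol means, and the groups overlap in every panel.

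Among the receptors of the vessel wall, Tie1, an orphan receptor kinase that modulates angiopoietin signalling, was at 6.54, 6.82 and 7.03 in ethanol animals (lowest, median and highest) against 6.45, 6.59 and 6.79 in water animals. In 5 of the 10 ethanol animals Tie1 was above every water animal, and 8 lay above the water mean. The difference was 0.20 ± 0.06 (SE), a fold of 1.15 (p = 0.00384, adjusted p = 0.283). Tie1 was dim, averaging 6.80 ± 0.17 in ethanol and 6.60 ± 0.10 in water animals, near the filter.

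Flt1, a VEGF receptor that acts largely as a decoy, was dimmer still and lay below the filter. Its 3 probe sets differed by 0.24, 0.13 and 0.03. The brightest was at 6.43, 6.55 and 6.97 in ethanol animals against 5.89, 6.39 and 6.60 in water animals, and all 10 ethanol animals lay above the water mean. The lowest value was that of water animal 18, with the next water animal at 6.28. With dim probe sets included in the fit, Flt1 had p = 0.00505 and an adjusted p of 0.336.

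The other receptors showed smaller or less certain differences. Kdr, the main VEGF signalling receptor, differed by 0.06 (95% interval -0.08 to 0.20) and Tek, the angiopoietin receptor, by 0.10 (-0.04 to 0.23). Eng, a TGF-beta co-receptor, differed by 0.04 (-0.08 to 0.17). None of these 3 intervals reached a change of 0.3 with all animals and no covariate. Tek differed by 0.19 with the 3′ bias as a covariate (p = 0.0084, adjusted p = 0.643), by 0.16 without water animals 12, 17 and 20 (p = 0.00897, adjusted p = 0.316) and by 0.14 with array weights (p = 0.0219, adjusted p = 0.371), and its p was over 0.05 in the 9 other alternatives.

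Ramp2, a co-receptor that makes the calcitonin receptor-like receptor bind adrenomedullin, was at 9.03, 9.36 and 9.55 in ethanol animals against 9.12, 9.41 and 10.43 in water animals. Water animals 17, 19 and 20 held the 3 highest of all 20 values, at 9.91, 9.66 and 10.43. These are also the 3 animals with the lowest mean of the medium spiny neuron markers, at 11.86, 12.13 and 11.56. Ramp2 differed by -0.19 (p = 0.172) with them and by 0.02 (p = 0.766) without them.

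Egfl7, a secreted factor of endothelial cells, had the smallest p of all members. It was at 8.999, 9.12 and 9.30 in ethanol animals against 8.80, 9.03 and 9.07 in water animals. In 7 of the 10 ethanol animals Egfl7 lay above every water animal, and all 10 were above the water mean. The difference was 0.18 ± 0.05, a fold of 1.13 (p = 0.00139, adjusted p = 0.225). The second Egfl7 probe set differed by 0.14 and did not reach the unadjusted level (p = 0.0693).

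Vwf, the platelet-binding glycoprotein that endothelial cells store and release, varied widely between animals and differed by 0.10 (95% interval -0.16 to 0.36). Nos3, the endothelial nitric oxide synthase, was dim, at 5.76 ± 0.13 in ethanol and 5.82 ± 0.22 in water animals.

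Emcn, an anti-adhesive sialomucin of capillary and venous endothelium, was at 8.21, 8.27 and 8.60 in ethanol animals against 8.11, 8.23 and 8.38 in water animals. Ethanol animals 1, 5, 7 and 9 lay above every water animal, and the other ethanol values mixed with those of water. The difference was 0.12 ± 0.05, a fold of 1.09 (p = 0.0305, adjusted p = 0.381). Without water animals 17, 19 and 20 it was 0.12 with p = 0.0654, and with the oligodendrocyte mean as a covariate 0.11 with p = 0.0581.

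Among junction genes Ocln, a transmembrane protein of tight junctions, was at 8.10, 8.28 and 8.38 in ethanol animals against 8.26, 8.35 and 8.48 in water animals. In 4 ethanol animals Ocln was below every water animal. The difference was -0.10 ± 0.04 (p = 0.0261, adjusted p = 0.37). A second Ocln probe set went the other way, with a difference of 0.09 (p = 0.182), and the mean over both differed by -0.0091 (p = 0.831).

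The other junction genes were close to equal in the groups. Cldn5 differed by 0.06 (95% interval -0.04 to 0.16) and Pecam1, an adhesion molecule at endothelial contacts, by -0.02 (-0.14 to 0.11). Esam, another endothelial adhesion molecule, differed by -0.03 (-0.10 to 0.05), and Tjp1, a scaffold of tight junctions also used by other cells, by -0.01 (-0.09 to 0.06). Apart from Ocln, which had 2 probe sets of opposite sign, no junction gene had an interval that excluded 0.

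Of the leukocyte adhesion molecules, Icam2, which endothelial cells express without stimulation, was at 7.78, 7.90 and 8.08 in ethanol animals against 7.96, 8.07 and 8.22 in water animals. In 7 of the 10 ethanol animals Icam2 lay below every water animal. The difference was -0.15 ± 0.05, a fold of 0.899 (p = 0.00279, adjusted p = 0.265). A second, dim Icam2 probe set differed by -0.05 (p = 0.507). Icam1 and Vcam1, which inflammation induces, differed by -0.03 (95% interval -0.20 to 0.14) and 0.03 (-0.06 to 0.12).

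None of the 3 barrier transporters among the members reached the unadjusted level. Slc2a1, the glucose carrier of the barrier, differed by -0.02 (95% interval -0.10 to 0.05). Abcb1a, which encodes the efflux pump P-glycoprotein, differed by 0.03 (-0.19 to 0.25). A second Abcb1a probe set above the filter went the other way, with a difference of -0.06 (p = 0.454). The efflux pump Abcg2 was at 8.56, 8.76 and 9.11 in ethanol animals against 8.51, 8.70 and 8.99 in water animals, and the groups overlapped over most of their range. The difference of Abcg2 was 0.06 ± 0.07 (p = 0.353, adjusted p = 0.696).

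Of the transcription factors, Sox17 and Sox18, which act in arterial and vascular development, were both lower in ethanol at the unadjusted level. Sox7, the other gene of their SOXF family and no member, differed by -0.11 and did not reach that level (p = 0.237, adjusted p = 0.615). Sox18 was at 7.55, 7.79 and 7.996 in ethanol animals against 7.79, 7.997 and 8.23 in water animals. All 10 ethanol animals lay below the water mean of Sox18, and 5 lay below every water animal. The difference was -0.20 ± 0.06, a fold of 0.871 (p = 0.00252, adjusted p = 0.259).

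Sox17 was at 7.73, 8.02 and 8.40 in ethanol animals against 7.91, 8.26 and 8.68 in water animals. In 9 of the 10 ethanol animals Sox17 lay below the water mean, and the exception was ethanol animal 1 at 8.40. The difference was -0.23 ± 0.08, a fold of 0.85 (p = 0.00941, adjusted p = 0.314). Its 2 other probe sets had means of 5.53 and 5.48, below the filter, and differed by -0.01 and -0.0038.

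Of the ETS factors, Fli1 was split by probe set. Fli1 had 4 probe sets above the filter, and the brightest, which represents the gene, differed by 0.06 (p = 0.305). Fli1 was highest in water animal 12, at 8.10, and without water animals 12 and 13 this probe set differed by 0.10 (p = 0.0375). Of the 3 others, 2 were lower in ethanol, by -0.25 (p = 0.0046) and -0.17 (p = 0.00988), and the last differed by -0.08 (p = 0.152). Averaged over its probe sets Fli1 differed by -0.11 (p = 0.0185, adjusted p = 0.364), so its direction depends on the probe set. Over 11 alternatives Fli1 differed by -0.11 to 0.12, and 4 of them had p under 0.05 (lowest p = 0.0118). Ets1 and Erg differed by -0.06 each, with 95% intervals of -0.17 to 0.05 and -0.19 to 0.07, and a second, dim Erg probe set differed by 0.02 (p = 0.722). The p of Ets1 was under 0.05 in 1 of 12 alternatives (p = 0.0385). Across all members, 13 had several probe sets, and all probe sets of a gene shared a sign for 8 of them. Among probe sets above the filter, 6 members had several, and for 2 of these, Egfl7 and Vegfa, all shared a sign.

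**Figure D2:**
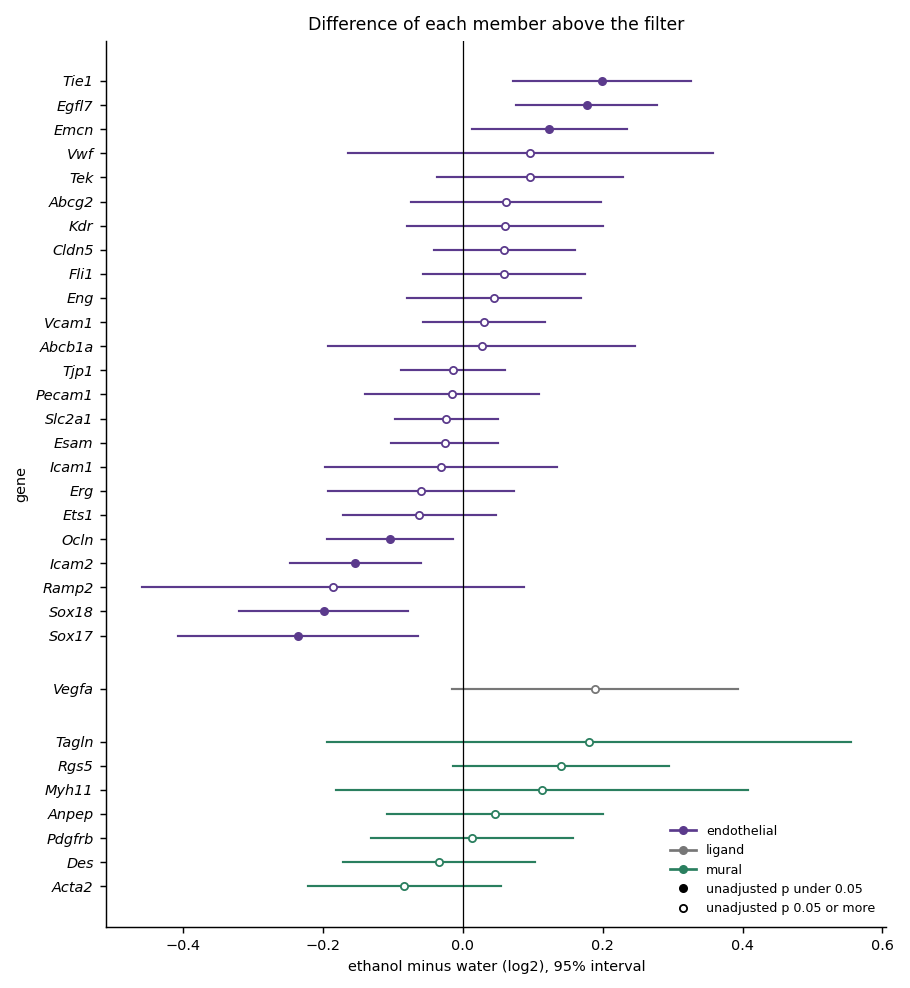
Ethanol minus water (log2) with its 95% interval for the 32 members above the filter, endothelial genes on top, then Vegfa, then mural genes. Filled points mark an unadjusted p under 0.05. Tie1, Egfl7 and Emcn stand to the right of 0 and Sox17, Sox18, Icam2 and Ocln to the left, and the widest interval is that of Tagln.

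No mural gene reached the unadjusted level. Rgs5, a regulator of G-protein signalling, came closest, at 9.57, 9.94 and 10.19 in ethanol animals against 9.54, 9.84 and 10.13 in water animals. In 9 of the 10 ethanol animals Rgs5 lay above the water mean. The difference was 0.14 ± 0.07 (p = 0.0732, adjusted p = 0.452). It was 0.15 without water animals 17, 19 and 20 (p = 0.0496) and 0.03 with the 3′ bias as a covariate (p = 0.697).

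Pdgfrb, the receptor through which endothelial cells recruit pericytes, was at 7.77, 7.97 and 8.18 in ethanol animals against 7.67, 7.92 and 8.33 in water animals. Ethanol values of Pdgfrb lay inside the range of the water values, and the difference was 0.0136 ± 0.0695 (p = 0.846, adjusted p = 0.95). Its other probe sets differed by -0.10 (p = 0.112) and 0.0109 (p = 0.875). Anpep, an aminopeptidase of pericytes, differed by 0.05 (-0.11 to 0.20). Acta2, the actin of smooth muscle, differed by -0.08 (-0.22 to 0.05) and the intermediate filament protein Des by -0.03 (-0.17 to 0.10).

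Tagln, an actin-binding protein of smooth muscle, was at 7.14, 7.64 and 8.71 in ethanol animals against 6.97, 7.61 and 8.43 in water animals. Ethanol animals 6 and 5, at 8.71 and 8.49, and water animal 15, at 8.43, had the highest values of all. The difference was 0.18 ± 0.18 (95% interval -0.19 to 0.55), and that of Myh11 was 0.11 (-0.18 to 0.41). For both contractile genes the interval holds changes of either sign. In ethanol animals 5 and 6 and water animal 15 the mean of 9 meningeal fibroblast markers was 7.79, 7.68 and 7.70. Its medians were 7.49 in ethanol and 7.48 in water animals, and the part of this tissue in Tagln and Myh11 was not tested. The dim members Notch3, Kcnj8, Cnn1 and Tbx18 differed by 0.03, 0.10, -0.06 and 0.0067.

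Vegfa, the ligand of Flt1 and Kdr, was at 10.17, 10.39 and 10.57 in ethanol animals against 9.59, 10.24 and 10.66 in water animals. Water animals 12 and 13, at 9.59 and 9.78, lay below every other animal, and water animal 20 lay above every other. The difference was 0.19 ± 0.10 (95% interval -0.02 to 0.39, p = 0.0685, adjusted p = 0.446). Without water animals 12 and 13 Vegfa differed by 0.06 (p = 0.36), and without water animals 17, 19 and 20 it differed by 0.31 (p = 0.00288, adjusted p = 0.194). The p of Vegfa was under 0.05 in 4 of 12 alternatives. A second, dimmer Vegfa probe set differed by 0.11 (p = 0.117).

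Averaged over the 24 endothelial members, the animals lay between 8.62 and 8.81 in ethanol (median 8.72) and between 8.64 and 8.82 in water (median 8.70). The difference of the endothelial means was -0.0029, a mean over 12 positive and 12 negative differences that offset each other. The mural means lay between 7.81 and 8.24 in ethanol (median 7.98) and between 7.87 and 8.12 in water (median 7.92), a difference of 0.05.

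The endothelial mean had an SD of 0.06 in ethanol and 0.06 in water animals, and the medium spiny neuron mean an SD of 0.22 in ethanol and 0.53 in water animals. These means are over different numbers of genes, so their SDs do not compare the cell types. With the oligodendrocyte mean as a covariate 6 of 24 endothelial members had an unadjusted p under 0.05, beside 10.9% of all probe sets. With the 3′ bias it was 8 of 24, beside 7.04%, and without water animals 17, 19 and 20 it was 6 of 24, beside 11.2%. Without a covariate or a left-out animal 12.1% of all probe sets reached the level. In these 3 settings Egfl7, Tie1, Icam2, Sox17 and Sox18 kept their direction and an unadjusted p under 0.05.

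**Figure D3:**
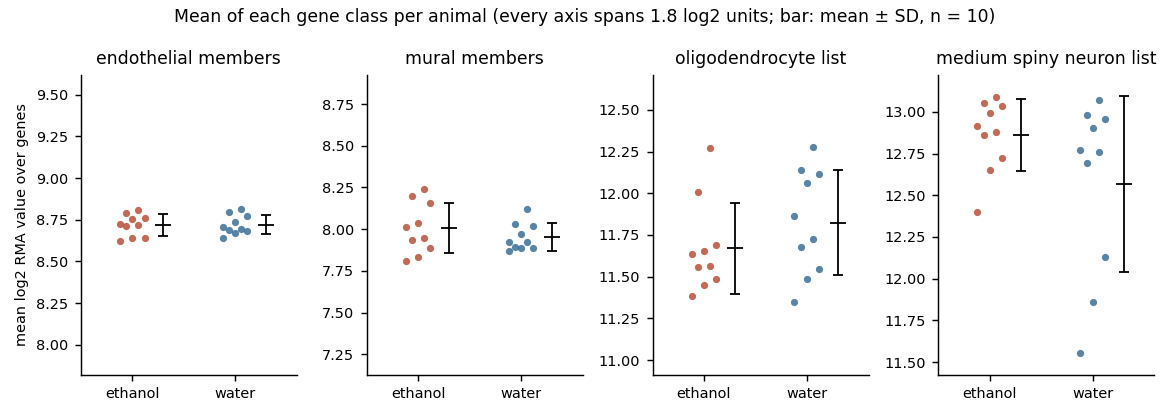
Mean log2 RMA value per animal (points) over the 24 endothelial members, 7 mural members, 11 oligodendrocyte markers and 11 medium spiny neuron markers, with ethanol left and water right and mean ± SD beside the points (n = 10 each). Every axis spans the same range of log2 units. The lists differ in the number of genes and in how far these vary together, so their spreads do not compare cell types. In the neuronal list 3 water animals lie below all others.

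Most genes varied more between water than between ethanol animals, and the endothelial members were evenly split. Over all genes tested 81.2% had a larger SD in water than in ethanol, with median SDs of 0.096 in ethanol and 0.14 in water. Of the 24 endothelial members 12 (50%) had a larger SD in water, with median SDs of 0.13 in ethanol and 0.12 in water, and of the 7 mural members 3 did. Without water animals 17, 19 and 20 the shares were 62.2% of all genes and 10 of 24 endothelial members (41.7%).

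The members that varied most in water were Ramp2 (SD 0.18 in ethanol and 0.41 in water), Tagln (0.48 in ethanol and 0.39 in water), Myh11 (0.31 in ethanol and 0.37 in water), Vwf (0.28 in ethanol and 0.32 in water) and Vegfa (0.11 in ethanol and 0.31 in water). Vegfa, Vcam1 and Ramp2 had the SDs with the largest ratio, at 0.11, 0.05 and 0.18 in ethanol against 0.31, 0.11 and 0.41 in water. Tie1 spread less in water (0.17 in ethanol and 0.10 in water). These SDs are a description without a test.

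**Figure D4:**
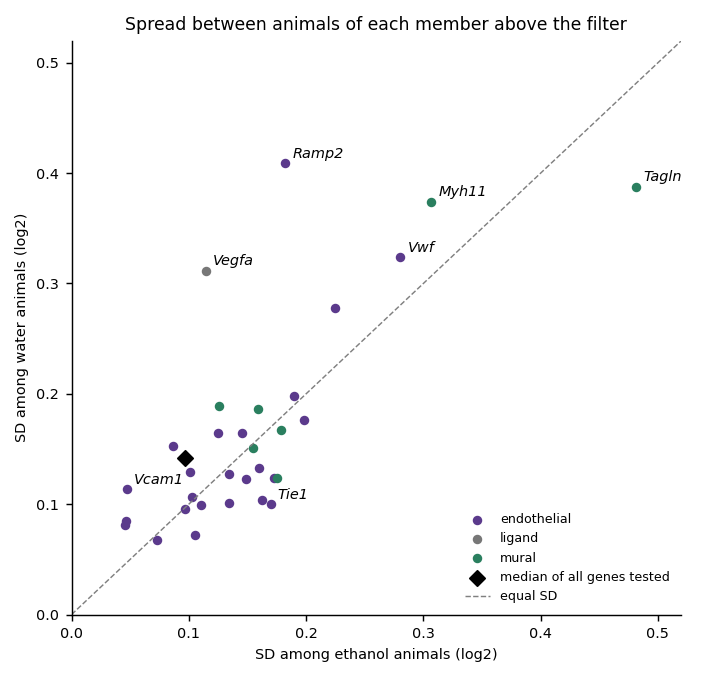
SD between ethanol animals (x axis) and between water animals (y axis), in log2 units, for each of the 32 members above the filter, with the median of all 10746 genes as a diamond and equal SDs as a dashed line. The diamond lies above the line, at 0.096 and 0.14, while the endothelial points fall on both sides of it.

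Genes that act with these members were followed in 7 further lists of 98 genes, of which 77 were above the filter. Of these 77 genes 1, Klf2, passed the test, and 17 (22.1%) had an unadjusted p under 0.05, 13 higher and 4 lower in ethanol, beside 10% of all genes tested. With all animals 12.1% of all probe sets reached the level. The count of related genes was 11 of 77 without water animals 17, 19 and 20, where 11.2% did. It was 10 of 77 without water animals 12, 17 and 20, where 9.71% did, and the cause was not tested. The lists were drawn up with Klf2, Klf4 and Lef1 already known to differ, so their presence is no independent evidence. The numbers of higher and lower genes given for each list are those at the unadjusted level.

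In the list of flow-responsive and activation genes (6 of 12 above the filter, 2 higher, 1 lower, median difference 0.13) Klf2, the transcription factor that laminar shear stress induces in endothelium, rose. It averaged 10.53 ± 0.29 in ethanol and 9.81 ± 0.24 in water animals, a difference of 0.73 ± 0.11 (adjusted p = 0.00343), and all 10 ethanol animals lay above the water mean. Its 3 other probe sets above the filter gave 0.79 (adjusted p = 0.173), 0.11 (adjusted p = 0.554) and 0.05 (adjusted p = 0.639). Klf4, a close relative of Klf2, differed by 0.50 (p = 0.00158, adjusted p = 0.228) and the NF-kappa-B inhibitor Nfkbia by -0.16 (p = 0.0102, adjusted p = 0.319). Nos3, a target of Klf2 in endothelial cells, was below the filter. Edn1 and Thbd of this list were dim too and were not tested. Edn1 averaged 6.71 ± 0.29 in ethanol and 6.34 ± 0.19 in water animals. Thbd averaged 5.88 ± 0.13 in ethanol and 6.02 ± 0.19 in water animals. The arrays measured whole tissue, so the cells in which Klf2, Klf4 or genes of the other lists differed were not determined.

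In the Notch list (12 of 13 above the filter, 2 higher, 0 lower, median 0.06) the ligand Jag1 averaged 7.83 ± 0.34 in ethanol and 7.49 ± 0.17 in water animals, a difference of 0.34 (p = 0.00587, adjusted p = 0.298). The Notch target Hes5 differed by 0.24 (p = 0.0161) and the target Heyl, which mural cells express, by 0.11 (p = 0.0588). Positive differences were found for 10 of the 12 genes, beside 50.1% of all genes tested. In the TGF-beta, BMP and PDGF list (15 of 20 above the filter, 3 higher, 1 lower, median 0.03) the BMP targets Id1 and Id3 differed by 0.19 (p = 0.00978) and 0.33 (p = 0.0263), and the inhibitory Smad7 by -0.15 (p = 0.0155). Their adjusted p-values were 0.316, 0.371 and 0.332.

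In the Wnt and barrier list (11 of 13 above the filter, 1 higher, 1 lower, median 0.05) Apcdd1, a Wnt inhibitor of barrier endothelium, differed by 0.19 (p = 0.00353, adjusted p = 0.282) and the Wnt transcription factor Lef1 by -0.19 (p = 0.00101, adjusted p = 0.216). Fzd4, the receptor for norrin on brain endothelium, differed by 0.11 (p = 0.0525). In the VEGF and angiopoietin list (8 of 12 above the filter, 1 higher, 1 lower, median 0.03) the VEGF co-receptor Nrp1 differed by -0.14 (p = 0.0397), the phosphatase Ptprb, which restrains Tek, by 0.10 (p = 0.0499) and the ligand Apln by 0.14 (p = 0.154).

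Transport genes of the barrier outside the members (13 of 14 above the filter, 2 higher, 0 lower, median 0.02) were led by the transferrin receptor Tfrc, which averaged 11.70 ± 0.07 in ethanol and 11.51 ± 0.15 in water animals. All 10 ethanol animals lay above the water mean of Tfrc, and the difference was 0.19 (p = 0.00135, adjusted p = 0.225). The taurine transporter Slc6a6 differed by 0.19 (p = 0.00476, adjusted p = 0.287) and the organic anion carrier Slco1a4 by 0.13 (p = 0.0698, adjusted p = 0.446). Tfrc and Slc6a6 are also expressed by other brain cells.

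Among hypoxia-induced genes (12 of 14 above the filter, 2 higher, 0 lower, median 0.04) Ldha, a glycolytic enzyme, differed by 0.11 (p = 0.0232), Ankrd37 by 0.22 (p = 0.0286) and Pdk1, a kinase that limits glucose oxidation, by 0.08 (p = 0.0693). Their adjusted p-values were 0.363, 0.379 and 0.446. Vegfa and Slc2a1, which hypoxia also induces, are the members described above.

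**Figure D5:**
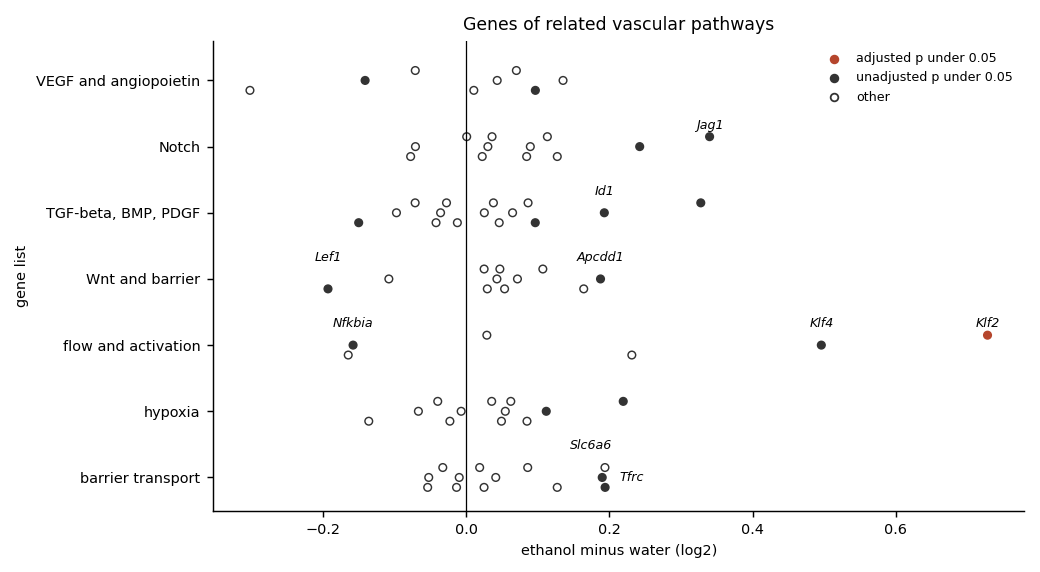
Ethanol minus water (log2) for the 77 genes above the filter in the 7 related lists, 1 point per gene. The red point is Klf2 at 0.73, the single gene with an adjusted p under 0.05, black points had an unadjusted p under 0.05, and open points are the other genes.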

How the data were processed

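Arrays of 20 rats were compared, 10 per group as labelled. Per the labels' protocols, biotinylated cRNA was made with a 3′ labelling kit. The values the authors deposited are log2 values from RMA, per the submitters' processing notes, a method that sets all arrays to 1 distribution, so a change common to most genes cannot be seen. The sources used here name no software version. All sample columns were used (0 left out). Of 31099 probe sets, 20826 have 1 gene in the platform table, 436 several and 9780 none, and 57 are controls. Signal over background is not in the values, so the dimmest 33.3% and the controls were left out, which left 20695 probe sets.

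Groups were compared with limma (version 3.58.1, R 4.3.3; lmFit, eBayes, two-sided, no covariates, Benjamini-Hochberg over all probe sets, threshold 0.05). Single genes are reported beside the share of all 10746 genes at the same level. The number of arrays limits precision. The test was checked on simulated data with the same SD in both groups, unlike most genes here. It recovered 46% of true changes of 0.25 and 92% of those of 0.5.

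Members and lists were chosen with earlier results of these data known. Named genes are members with an unadjusted p under 0.05, the largest difference in each role, defining markers, Vegfa, and up to 3 genes of smallest p per related list or past the threshold; other members stand beside them so that each is accounted for. The 12 alternatives changed filter, normalization, variance model, array weights, arrays, covariates, a block for runs of arrays in their order of deposit, or probe set choice. Applying them to the related lists was decided after seeing the data.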

Additional observations from a re-analysis of the deposited data

Results flagged for a closer look

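For the members on the array and the means of both classes, 80 groups of 10 animals were searched for a single animal standing apart, and 5 were found, where chance gives about 1 in 20 groups. In water, Flt1 was lowest in animal 18, at 5.89 with the next at 6.28. Abcg2 was highest in water animal 17, at 8.99 with the next at 8.76. Fli1 was highest in ethanol animal 1, at 8.01 with the next at 7.83, and in water animal 12, at 8.10 with the next at 7.78. Tbx18, a dim mural transcription factor, was lowest in water animal 12, at 5.15 with the next at 5.44.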

How the results depend on the processing

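Under all 12 alternatives 0 endothelial and 0 mural members passed the threshold. Endothelial members at an unadjusted p under 0.05 numbered 5 to 9, against 7 of 24 beside 12.1% of all probe sets. The number tested changed with the filter, with 5 of 17 where probe sets below the median were left out (beside 12.7%). With no filter the count was 8 of 26 (beside 10.6%). The count of mural members at that level changed to 1 without water animals 17, 19 and 20 and without water animals 12, 17 and 20 (Rgs5 in both), and to 1 with 3′ bias as a covariate (Acta2, at -0.16, p = 0.0421). Probe sets past the threshold numbered 20, and 10 with probe sets below the median left out, 38 with array weights, 50 without water animals 17, 19 and 20, and 7 with that covariate. Related genes at the unadjusted level numbered 17, and 11 and 10 without those 2 sets of water animals. The cause of these shifts was not tested. Of 371 member differences 353 kept their direction and 18 changed sign, none with an adjusted p under 0.05. With array weights these were Pecam1 (0.0025), Vcam1 (-0.0062) and Abcb1a (-0.0068). Without water animals 17, 19 and 20 they were Ramp2 (0.0245), Pecam1 (0.0085), Vcam1 (-0.0101), Pdgfrb (-0.0358) and Anpep (-0.0024). Without water animals 12, 17 and 20 they were Pecam1 (0.0017) and Icam1 (0.0106), and without 12 and 13 Icam1 (0.0087) and Abcb1a (-0.0133). With 3′ bias as a covariate Icam1 (0.0155) changed sign, and with the oligodendrocyte covariate Tjp1 (0.0070) and Pdgfrb (-0.0130). By the mean over probe sets Abcb1a (-0.0158), Fli1 (-0.11) and Pdgfrb (-0.0262) did. No paired analysis was possible because the animals are numbered separately and share no numbers between groups.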

Other observations

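Cells that sit beside the vessels were also followed by marker lists. Of 9 meningeal and perivascular fibroblast markers above the filter 0 had an unadjusted p under 0.05, and their mean lay between 7.45 and 7.79 in ethanol (median 7.49) and between 7.29 and 7.75 in water (median 7.48). The growth factor Igf2, which leptomeninges express, differed by -0.16 (adjusted p = 0.46) and the collagen gene Col1a2 by 0.09 (adjusted p = 0.658). Of 3 perivascular macrophage markers above the filter 0 reached that level, with Lyve1 at 0.32 (adjusted p = 0.464), Pf4 at -0.01 and Mrc1 at -0.03. The beta-globin gene Hbb, a marker of blood left in the vessels, lay between 12.72 and 13.32 in ethanol (median 13.11) and between 12.48 and 13.64 in water (median 12.94), a difference of 0.20 (adjusted p = 0.488). Of 10 astrocyte markers, cells whose endfeet cover the vessels, 0 reached the unadjusted level. Gfap differed by -0.36 (p = 0.078, adjusted p = 0.458). Of 10 microglia markers 9 differences were negative, with a median of -0.10, where 50.1% of all genes had a positive difference. An unadjusted p under 0.05 was reached by 2 of them, lower in ethanol, beside 4.77% of all genes lower at that level. Of 2 choroid plexus markers above the filter 0 reached the unadjusted level.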
